A study of Mus musculus with 27 samples.

Results

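The genes described here encode the route by which heart muscle oxidizes pyruvate: its entry into mitochondria, the pyruvate dehydrogenase complex and the enzymes that switch it, the tricarboxylic acid (TCA) cycle, and the malate and aspartate enzymes next to it. The set is a list of 32 gene names of this route, of which 31 were found in the probe annotation, out of 19937 genes measured. Mpc2 was not found under that name in the annotation used and was not analysed here. Where a gene had several probe sets, the one with the highest mean signal stood for it.

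RNA came from pieces of heart, 10 to 20 mg each, of male C57Bl/6J littermate mice aged 10 to 12 weeks. The mice had either a sham operation or transverse aortic constriction (TAC), which narrows the aortic arch and loads the left ventricle with pressure; the labels give a peak gradient of about 50 mmHg across the narrowing. From 1.5 days after the operation they were injected with dimethyl sulfoxide vehicle or with JQ1, a small molecule that displaces BET bromodomain proteins from acetylated chromatin. At each of days 3, 11 and 28 there were 3 arrays of sham with vehicle, 3 of TAC with vehicle and 3 of TAC with JQ1, which makes 9 groups and 27 arrays. No sham group with JQ1 is among these samples, so the effect of JQ1 is known here only in hearts under TAC. The labels do not say whether each array is a separate heart or which part of the heart was taken, and the p-values measure the spread between these arrays.

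Pyruvate made from glucose or lactate is carried into the mitochondrial matrix by the mitochondrial pyruvate carrier and is turned into acetyl-CoA by the pyruvate dehydrogenase complex. Pyruvate dehydrogenase kinases phosphorylate the E1 alpha subunit and switch the complex off, and pyruvate dehydrogenase phosphatases remove the phosphate and switch it on again. The TCA cycle then oxidizes acetyl-CoA, whether it comes from pyruvate or from fatty acids, and hands electrons to the respiratory chain; the adult heart draws most of its ATP from this machinery.

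Values are log2 probe-set signals, so a difference of 1 is a 2-fold difference of signal; they rank a probe set between arrays and not one gene above another. The residual standard deviation between arrays of one group had a median of 0.0656 over the 31 genes, against 0.127 over all genes, so that a small difference passes the test more easily here than for an average gene. Array medians lay between 6.954 and 7.043, and any 2 arrays correlated at 0.976 or above. Defining markers of cardiomyocytes (13 genes, among them Myh6, Tnnt2 and Actc1) were all above the 99th percentile of genes, so the markers of the labelled tissue were present.

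To show what the promoters of the genes with the smallest p-values for TAC look like, the 250 bases upstream of the transcription start are printed 5′ to 3′ on the gene's strand, as RefSeq gives them for GRCm38.p6, with motif matches in capitals. Pdp2 lies at chr8:104591222-104591471 on the plus strand, Sdha at chr13:74350241-74350490 on the minus strand, Suclg2 at chr6:95718847-95719096 on the minus strand, and Sucla2 at chr14:73552536-73552785 on the plus strand. In Pdp2 the capitals mark an E-box (CACGTG) and a GC box (GGGCGG or its complement), in Sdha 3 cores of the NRF1 site (CGCNTGCG), in Suclg2 GC boxes, and in Sucla2 a GC box and an NRF1 core.
Pdp2: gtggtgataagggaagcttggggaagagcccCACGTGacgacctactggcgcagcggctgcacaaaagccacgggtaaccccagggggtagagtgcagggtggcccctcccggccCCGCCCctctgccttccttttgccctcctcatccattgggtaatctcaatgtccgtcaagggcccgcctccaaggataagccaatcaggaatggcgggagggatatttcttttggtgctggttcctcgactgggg
Sdha: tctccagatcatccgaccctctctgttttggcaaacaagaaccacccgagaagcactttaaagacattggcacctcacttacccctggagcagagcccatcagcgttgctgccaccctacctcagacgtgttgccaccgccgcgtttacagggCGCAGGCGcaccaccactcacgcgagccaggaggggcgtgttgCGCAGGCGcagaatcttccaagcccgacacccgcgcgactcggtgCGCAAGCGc
Suclg2: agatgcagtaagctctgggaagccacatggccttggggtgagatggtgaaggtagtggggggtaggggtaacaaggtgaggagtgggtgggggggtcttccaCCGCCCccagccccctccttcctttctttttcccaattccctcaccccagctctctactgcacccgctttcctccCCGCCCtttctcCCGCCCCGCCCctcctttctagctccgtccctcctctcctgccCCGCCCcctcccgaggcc
Sucla2: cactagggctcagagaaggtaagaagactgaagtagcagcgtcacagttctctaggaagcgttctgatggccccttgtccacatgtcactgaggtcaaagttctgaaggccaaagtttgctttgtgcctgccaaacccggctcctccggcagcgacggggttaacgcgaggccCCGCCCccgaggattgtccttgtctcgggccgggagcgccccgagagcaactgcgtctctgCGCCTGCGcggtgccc

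Both strands were searched for 5 motifs, and RefSeq promoters were found for 28 of the 31 genes, 37 promoters in all. Ogdh has several starts, and some of their windows overlap and share sequence. NRF1 is a transcription factor of nuclear genes for mitochondrial proteins. Its core was present in 8 of the 37 promoters (21.6%), against 6.76% of all 32851 promoters, and lay in Pdha1, Pdhb, Idh3g, Ogdh, Sucla2, Sdha and Sdhd. The E-box was present in 16.2% of these promoters against 6.02% of all, and the GC box in 51.4% against 32.7%. The E-box promoters belong to 4 genes, Ogdh, Pcx, Pdk2 and Pdp2, with Ogdh counted more than once. A YY1 site (AANATGGCG) was found in 1 of the 37 (2.7%), that of Idh3g, against 1.12% of all. The estrogen-related receptor element (TNAAGGTCA) was found in 0 of the 37 and in 1.14% of all promoters. A single match, or none, among 37 promoters does not show a share that differs from that of all promoters. In Sdha the first letters of the 3 NRF1 cores lie 97, 54 and 9 bases before the start. These shares describe the letters in this window and say nothing of whether a factor was bound.

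Averaged over the 3 days, 28 of the 31 genes fell with TAC against sham in the limma fit (adjusted p under 0.05 over all genes), where 12.9% of all genes fell and 13% rose. The median log2 difference was -0.22, against -0.03 for all genes, and single genes ranged from -0.90 for Pdp2 to -0.07 for Mpc1. Pdhx, Pdk4 and Mpc1 did not pass the test. No gene of the set rose, at an adjusted or at an unadjusted p under 0.05 (0 of 31 for both). All 28 calls were kept whichever 1 array was left out.

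By day, 10 of the genes fell at day 3 (3.33% of all genes fell), 18 at day 11 (7.73%) and 24 at day 28 (6.98%). All 31 differences lay below 0 at days 3 and 11, and 30 at day 28, where Pdk4 stood at 0.10. TAC and sham arrays did not overlap, with TAC lower, for 22 genes at day 3, 27 at day 11 and 27 at day 28, where 11.9%, 16.6% and 21.1% of all genes did so. The day 3 count was 5 without sham replicate 1 or sham replicate 3, and it was 4 once TAC vehicle replicate 2 was left out. In that last case the number of all genes that fell at day 3 dropped from 664 to 173. The day 28 count was 15 without either sham replicate 1 or TAC vehicle replicate 3. Without that TAC vehicle array the number of all genes that fell dropped from 1392 to 791. A fit of only the groups compared, with far fewer arrays for the spread, left 1 gene at day 3, and array weights gave 16. The share of all genes called under these 2 settings is not given here. The calls that held without any 1 array were 4 at day 3 (Pdp2, Idh3a, Sucla2 and Fh1), 13 at day 11 and 14 at day 28. Whether the TAC effect on a gene changed between days was tested apart and is given further on; the counts by day do not test it.

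With JQ1 added to TAC, 14 of the 31 genes rose against TAC vehicle in the mean over days, where 12.3% of all genes rose and 16.8% fell. They were Pdha1, Dld, Pdk1, Mpc1, Pcx, Cs, Idh3a, Idh3g, Suclg1, Sucla2, Sdha, Sdhc, Fh1 and Got1. The median log2 difference was 0.11, against 0.02 for all genes, and the range was -0.09 for Pdp2 to 0.26 for Got1. None fell, at an adjusted or at an unadjusted p under 0.05. With arrays centred on their medians 23 genes rose, where 23.3% of all genes rose. Of the 14 calls 12 were kept whichever array was left out. The call of Sdhc did not hold without TAC vehicle day 3 replicate 2 (adjusted p = 0.0658), TAC JQ1 day 3 replicate 2 (0.0582), TAC vehicle day 28 replicate 3 (0.0651) or TAC JQ1 day 28 replicate 2 (0.0650). That of Fh1 did not hold without TAC vehicle day 3 replicate 2 (0.0544), TAC vehicle day 11 replicate 1 (0.0515) or TAC vehicle day 28 replicate 1 (0.0562).

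At day 3 JQ1 raised 1 gene, Got1, and lowered 1, Pdp2, where 4.28% of all genes rose and 7.61% fell. At day 11 it raised 12 (7.52% of all genes rose) and at day 28 it raised 10 (7.16%). The median difference of the 31 genes was 0.03 at day 3, 0.16 at day 11 and 0.10 at day 28. Arrays with JQ1 lay wholly above those with vehicle for 4 genes at day 3, 24 at day 11 and 12 at day 28, where 11%, 16.8% and 18% of all genes did so. The day 11 count rests on single arrays. It was 3 without TAC vehicle replicate 1 and 7 without TAC vehicle replicate 3. Among the JQ1 arrays it was 6 without replicate 1 or replicate 3 and 5 without replicate 2. Without JQ1 replicate 2 the number of all genes that rose dropped from 1500 to 878. Array weights gave 21, and the share of all genes called with them is not given here. The day 28 count was 5 without TAC vehicle replicate 1 or JQ1 replicate 2. Without that JQ1 array the number of all genes that rose dropped from 1427 to 833. The day 28 count was 0 in a fit of only the groups compared, for which the share of all genes is not given. Neither day 3 call survived that fit or a further quantile normalization. Calls that held without any 1 array were Pcx, Suclg1 and Got1 at day 11 and Dld, Idh3a, Sucla2 and Fh1 at day 28. The same TAC vehicle arrays enter the comparison with sham and the comparison with JQ1, with opposite sign, so that a chance low value there would make both look larger.

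Against sham of the same day, TAC with JQ1 had 10 of the genes lower at day 3 (10.7% of all genes were lower), 4 at day 11 (5.51%) and 12 at day 28 (12.6%). The 4 at day 11 were Pdp2, Suclg2, Sdhc and Fh1; the count was 1 to 3 when 1 array was left out, and Pdp2 alone held throughout. Arrays centred on their medians gave 1 lower and 1 higher gene there, where 3.94% of all genes were lower and 5.81% higher. The count was 6 without JQ1 replicate 1 at day 3 and 7 without JQ1 replicate 1 at day 28. That day 28 omission moved the number of all genes that were lower from 2508 to 1929. A fit of only the groups compared gave 2 lower genes at day 3 and 5 at day 28, and array weights gave 18 at day 3 and 9 at day 11. The share of all genes called under these settings is not given here. Levelling on cardiomyocyte markers, described further on, gave 7 at day 28, where 8.71% of all genes were lower. None was higher by the test at any day (6.94%, 5.01% and 7.36% of all genes were at days 3, 11 and 28), and at an unadjusted p under 0.05 there was 1 at day 11 (0 at days 3 and 28). These comparisons share the JQ1 arrays with the comparison against vehicle and the sham arrays with the TAC comparison.

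**Figure D1:**
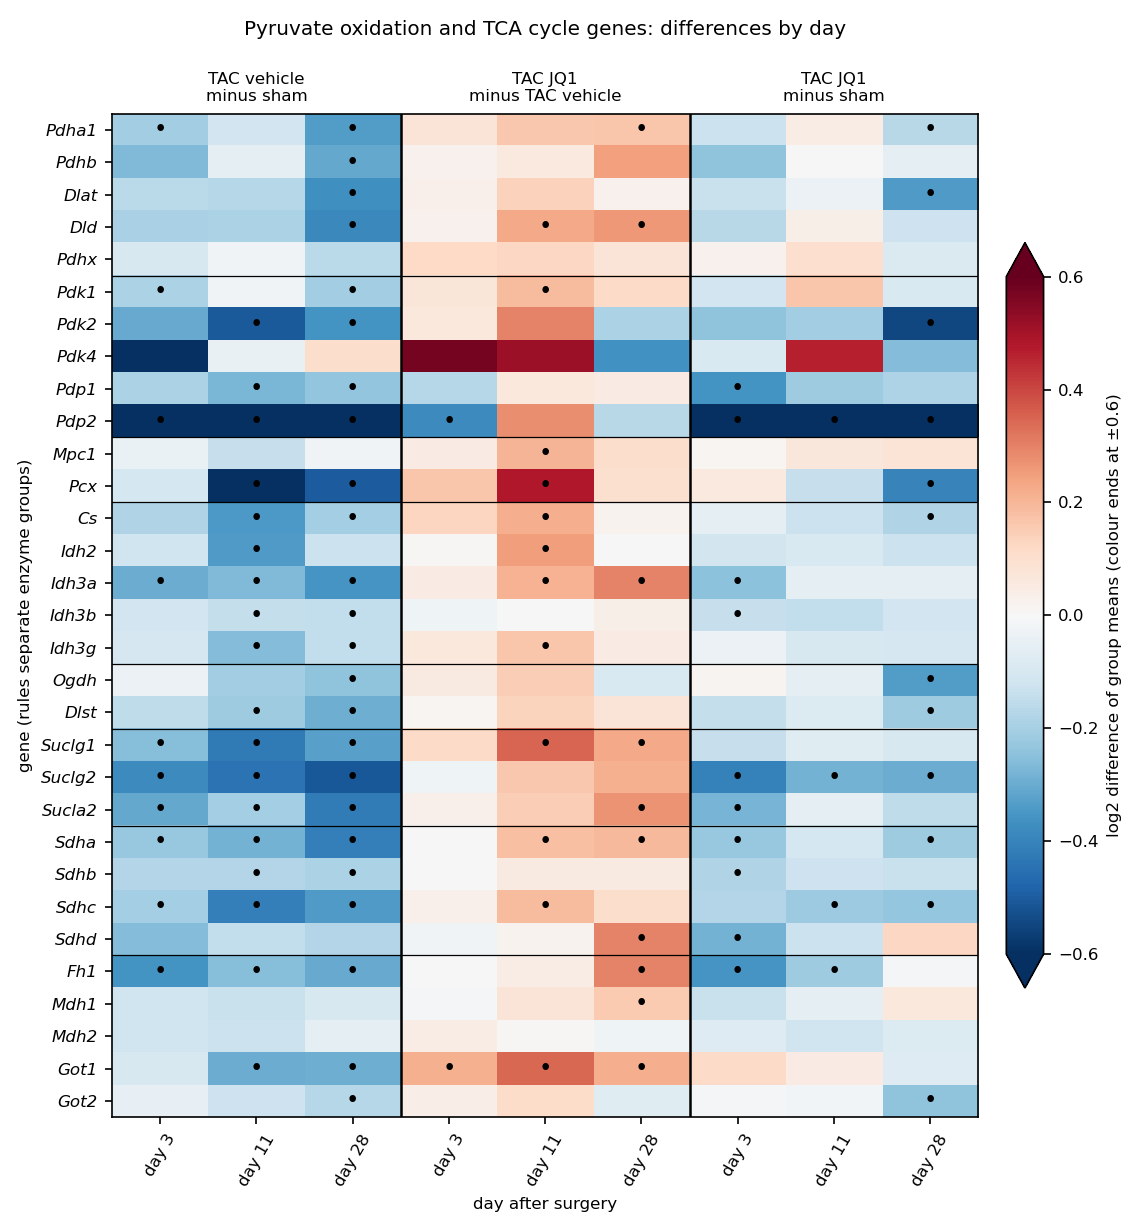
Log2 differences of group means for the 31 genes (vertical axis, with lines between enzyme groups) in 9 comparisons (horizontal axis, by day after surgery), blue for lower and red for higher, with the colour ending at 0.6 either way. A dot marks an adjusted p under 0.05. The TAC block is blue but for Pdk4 at day 28, and the JQ1 block holds 1 red call at day 3, 12 at day 11 and 10 at day 28.

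Cell markers moved with the same groups. Averaged over days, 8 of 8 fibroblast markers and 9 of 10 macrophage markers rose with TAC, by a median of 0.67 and 0.71, and 6 of 8 and 8 of 10 fell with JQ1, by -0.51 and -0.42. Of 13 cardiomyocyte markers 6 fell and 1 rose with TAC (median -0.05), and 4 rose with JQ1 (median 0.03). The mean of the fibroblast markers ran from 9.36 to 9.73 in sham, 9.96 to 10.48 in TAC vehicle and 9.55 to 9.98 in TAC JQ1 arrays. That of the macrophage markers ran from 8.63 to 9.16, 9.33 to 9.84 and 8.89 to 9.51 in the same order. The mean of the cardiomyocyte markers ran from 13.21 to 13.29 in sham, 13.13 to 13.24 in TAC vehicle and 13.14 to 13.26 in TAC JQ1. Adipocyte markers (6 measured) stayed between 6.05 and 6.5 on this mean, and none passed the test in either average. The probe sets of the globin markers Hba-a1 and Hbb-b1 name several genes and were left out. The 2 red cell markers kept, Alas2 and Slc4a1, rose with JQ1 in the mean over days (median 0.58), and 0 of the 2 passed for TAC. Their mean ran from 8.38 to 9.79 at day 11 and 8.82 to 9.24 at day 28 in TAC JQ1, above 7.93 to 8.31 and 7.91 to 8.03 in TAC vehicle without overlap. Of 8 endothelial markers 2 rose with TAC and 5 fell with JQ1 (median -0.25). Their mean at day 11 ran from 10.17 to 10.23 in sham, 10.43 to 10.47 in TAC vehicle and 10.27 to 10.32 in TAC JQ1. Of 6 smooth muscle and pericyte markers 2 rose and 1 fell with TAC and 1 rose with JQ1, of 4 neutrophil markers 1 rose with TAC and 1 fell with JQ1, and of 6 skeletal muscle markers 1 fell with TAC and 0 passed for JQ1. The part of these cells in the differences of the 31 genes was not tested. In a piece of tissue, fewer cells of a type and less RNA per cell cannot be told apart.

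When each array was levelled on its mean cardiomyocyte marker signal, an alternative chosen after seeing the data, 23 of the 31 genes fell with TAC in the mean over days (median -0.16), where 7.47% of all genes fell, and 9 rose with JQ1 (median 0.07), where 8% of all genes rose. The JQ1 calls of Mpc1 (adjusted p = 0.0944), Cs (0.0596), Idh3g (0.222), Sdhc (0.137) and Fh1 (0.15) did not hold under it. By day it left 8, 13 and 14 lower genes for TAC at days 3, 11 and 28 (2.86%, 5.64% and 3.21% of all genes), and 3 and 8 higher genes for JQ1 at days 11 and 28 (3.96% and 4.76%). The levelling moved the median of all genes for TAC at day 28 from -0.05 to 0.05. It is not a test of cell composition. Some of the markers levelled on fell with TAC themselves, so the levelling also takes out a fall that they share with the 31 genes.

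**Figure D2:**
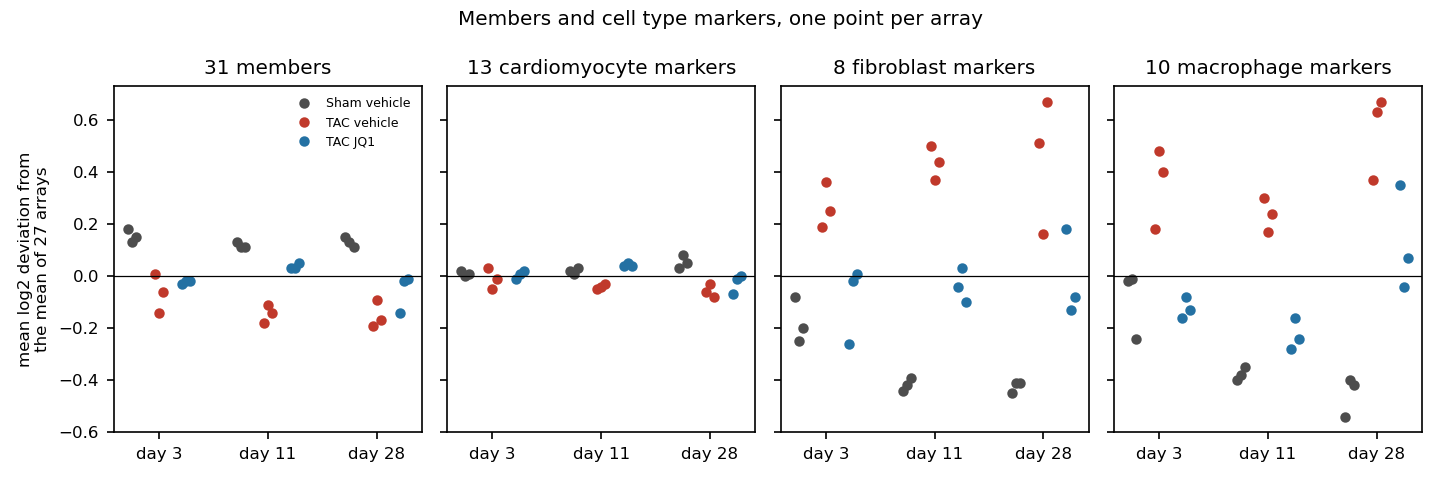
Each point is 1 array; the vertical axis is the mean log2 deviation from the mean of all 27 arrays, for the 31 genes and for 3 marker lists, by day and group. The 31 genes are highest in sham (0.11 to 0.18). At day 11 the TAC JQ1 arrays (0.03 to 0.05) lie between TAC vehicle (-0.18 to -0.11) and sham, at day 3 (-0.03 to -0.02) they lie inside the TAC vehicle range (-0.14 to 0.01), and at day 28 (-0.14 to -0.01) they overlap it (-0.19 to -0.09).

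The switch of the pyruvate dehydrogenase complex held the largest TAC difference of the set in the mean over days, that of Pdp2. Pdp2 also had the lowest mean signal of the set (7.88, at percentile 60.3 of all genes). Whether signal level bears on the size of a difference was not tested. Pdp2, a phosphatase that reactivates the complex, read 8.66, 8.09 and 8.40 in sham, 7.76, 7.56 and 7.63 in TAC vehicle and 6.96, 7.37 and 7.46 in TAC JQ1 at day 3. At day 11 Pdp2 read 8.57, 8.51 and 8.55 in sham, 7.49, 7.53 and 7.42 in TAC vehicle and 7.85, 7.78 and 7.64 in TAC JQ1. Its day 28 values were 8.43, 8.70 and 8.62, then 7.53, 7.76 and 7.80, then 7.40, 7.59 and 7.61. Every TAC array, with or without JQ1, lay below every sham array, and the JQ1 arrays lay below the vehicle arrays at day 3, above them at day 11 and overlapped them at day 28. Pdp2 fell with TAC by 0.73 ± 0.12 (log2, SE, n = 3 a group) at day 3 (adjusted p = 0.000671), 1.06 ± 0.12 at day 11 (3.33e-06) and 0.89 ± 0.12 at day 28 (2.87e-05), and by 0.90 ± 0.07 in the mean over days (3.18e-09), which is 1.86-fold.

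With JQ1, Pdp2 fell further at day 3, by 0.38 ± 0.12 (adjusted p = 0.0448). That call did not hold without TAC vehicle replicate 1 (adjusted p = 0.159), replicate 2 (0.0669) or replicate 3 (0.0860), or JQ1 replicate 1 (0.298, with the difference at -0.23). The difference was 0.28 ± 0.12 at day 11 (adjusted p = 0.141) and -0.16 ± 0.12 at day 28 (0.348). Against sham, TAC with JQ1 had Pdp2 lower by 1.12 at day 3 on the log2 scale (fold 2.17, adjusted p = 1.72e-06), by 0.79 at day 11 (0.000208) and by 1.05 at day 28 (1.86e-06).

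Pdp1, the other phosphatase and the calcium-stimulated one, fell with TAC by 0.23 ± 0.04 in the mean over days (adjusted p = 0.00024), and its JQ1 difference was -0.02 ± 0.04 (0.801).

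Pdk2, a kinase that inactivates the complex in heart, fell alongside the phosphatases. It read 12.03, 12.02 and 12.02 in sham, 11.89, 11.47 and 11.80 in TAC vehicle and 11.70, 11.78 and 11.88 in TAC JQ1 at day 3. The day 11 arrays of Pdk2 read 12.17, 12.19 and 12.18, then 11.68, 11.70 and 11.65, then 11.97, 11.96 and 11.98, so the 3 groups did not overlap. At day 28 the values were 12.13, 12.16 and 12.28, then 11.89, 11.98 and 11.62, then 11.36, 11.75 and 11.82, with both TAC groups below sham and overlapping each other. The fall of Pdk2 with TAC was 0.39 ± 0.06 in the mean over days (adjusted p = 3.13e-05). By day it was -0.30 ± 0.11 at day 3 (0.0923), -0.50 ± 0.11 at day 11 (0.00163) and -0.36 ± 0.11 at day 28 (0.0230). The day 28 call did not hold without sham replicate 3 (0.0989) or TAC vehicle replicate 3 (0.189). JQ1 differences of Pdk2 were 0.06, 0.30 and -0.19 at the 3 days, none past the test (0.821, 0.0601 and 0.202), although no day 11 JQ1 array overlapped a vehicle array.

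Pdk4, the kinase that fasting and fatty acids induce, was the most variable gene of the set, with a residual standard deviation of 0.419. At day 3 Pdk4 read 12.20, 12.54 and 11.79 in sham, 11.69, 11.30 and 11.55 in TAC vehicle and 13.03, 12.06 and 11.17 in TAC JQ1. For day 11 the values were 12.27, 11.99 and 11.39, then 12.14, 11.76 and 11.61, then 12.46, 12.26 and 12.34. For day 28 they were 11.85, 11.45 and 11.13, then 11.32, 11.58 and 11.85, then 11.00, 11.20 and 11.45. The 3 JQ1 arrays of day 3 span more than the gap between any 2 group means of the gene. TAC differences were -0.67, -0.05 and 0.10 and JQ1 differences 0.58, 0.51 and -0.36, each ± 0.31, and none passed the test (smallest adjusted p 0.237). With that error a change of the size seen for Pdk2 was not detectable in Pdk4.

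Pdk1, another kinase of the complex, fell with TAC by 0.14 ± 0.03 in the mean over days (adjusted p = 0.00256) and rose with JQ1 by 0.13 ± 0.03 (0.00533). Of these 5 switch genes, 4 fell with TAC and 1, Pdk1, rose with JQ1 in the means over days. Pdk3, a further kinase of the complex, is not in the set and rose with TAC, as given with the neighbouring genes. The kinases and phosphatases are regulated as proteins too, and the arrays measure only their transcripts.

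Of the 5 subunits of the complex itself, 4 fell with TAC in the mean over days. Pdha1, the phosphorylated E1 alpha subunit, fell with TAC by 0.22 ± 0.03 (adjusted p = 2.4e-05), and Dld, the E3 subunit that the oxoglutarate dehydrogenase complex also uses, by 0.26 ± 0.04 (2.59e-05). Dlat, the E2 core, fell by 0.23 ± 0.04 and Pdhb, the E1 beta subunit, by 0.21 ± 0.06. Pdhx, which anchors E3 to the core, stood at -0.09 ± 0.05 (0.189). With JQ1 Pdha1 rose by 0.14 ± 0.03 (0.00314) and Dld by 0.17 ± 0.04 (0.00186), while the other 3 subunits stood between 0.06 and 0.11 and did not pass.

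By day, 1 of the 5 subunits, Pdha1, fell with TAC at day 3 (adjusted p = 0.0299), a call that did not hold without sham replicate 1 (0.115) or replicate 3 (0.113), or TAC vehicle replicate 2 (0.238). At day 28 all but Pdhx fell, and the call of Pdhb (0.0384) did not hold without sham replicate 1 (0.205) or replicate 2 (0.0786), or TAC vehicle replicate 1 (0.139) or replicate 3 (0.121). At day 11 the differences ran from -0.19 to -0.02 with the smallest adjusted p at 0.0668, for Dld (3 of the 5 did not overlap sham). Pdha1 read 12.53, 12.51 and 12.51 in sham, 12.15, 12.23 and 12.17 in TAC vehicle and 12.28, 12.41 and 12.36 in TAC JQ1 at day 28. The JQ1 arrays lay between the other groups there without overlap, on a day when 18% of all genes had JQ1 wholly above vehicle. The day 28 rise of Pdha1 with JQ1 (adjusted p = 0.0449) was lost for 5 of the 6 arrays, left out 1 at a time. The call for TAC with JQ1 against sham (0.0489) was also lost for 5 of 6.

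Mpc1, a subunit of the mitochondrial pyruvate carrier, read 12.35, 12.47 and 12.41 in sham, 12.41, 12.33 and 12.37 in TAC vehicle and 12.49, 12.36 and 12.42 in TAC JQ1 at day 3. At day 11 Mpc1 read 12.45, 12.42 and 12.46, then 12.30, 12.26 and 12.35, then 12.55, 12.48 and 12.49. Its day 28 arrays read 12.31, 12.48 and 12.43, then 12.34, 12.40 and 12.41, then 12.52, 12.42 and 12.51. The groups overlapped at day 3, and only at day 11 were the TAC vehicle arrays below all sham arrays and all JQ1 arrays above both. The TAC difference of Mpc1 was -0.07 ± 0.03 in the mean over days (adjusted p = 0.167), and the gene rose with JQ1 by 0.12 ± 0.03 (0.00883). Whether the probe set of Mpc1 reads a near-identical copy of the gene elsewhere in the genome was not tested.

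Pcx, pyruvate carboxylase, makes oxaloacetate from pyruvate and so refills the cycle. It read 8.32, 8.32 and 8.41 in sham, 8.19, 8.12 and 8.42 in TAC vehicle and 8.38, 8.44 and 8.39 in TAC JQ1 at day 3, with the groups overlapping. At day 11 Pcx read 8.58, 8.46 and 8.55, then 7.81, 7.97 and 7.95, then 8.34, 8.53 and 8.30. At day 28 Pcx read 8.45, 8.54 and 8.60, then 8.07, 8.12 and 7.91, then 7.86, 8.26 and 8.26. The TAC vehicle arrays lay below all sham arrays at days 11 and 28, the JQ1 arrays lay above all vehicle arrays at day 11, and at day 28 JQ1 replicate 1 was the lowest of the 9. Pcx fell with TAC by 0.62 ± 0.10 at day 11 (adjusted p = 8.42e-05) and by 0.50 ± 0.10 at day 28 (0.000848), and its day 3 difference was -0.11 ± 0.10 (0.655). JQ1 raised it by 0.48 ± 0.10 at day 11 (0.00126), with differences of 0.16 and 0.10 at days 3 and 28 that did not pass. In the means over days the TAC fall of Pcx was 0.41 ± 0.06 (4.99e-06) and the JQ1 rise 0.25 ± 0.06 (0.00128).

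**Figure D3:**
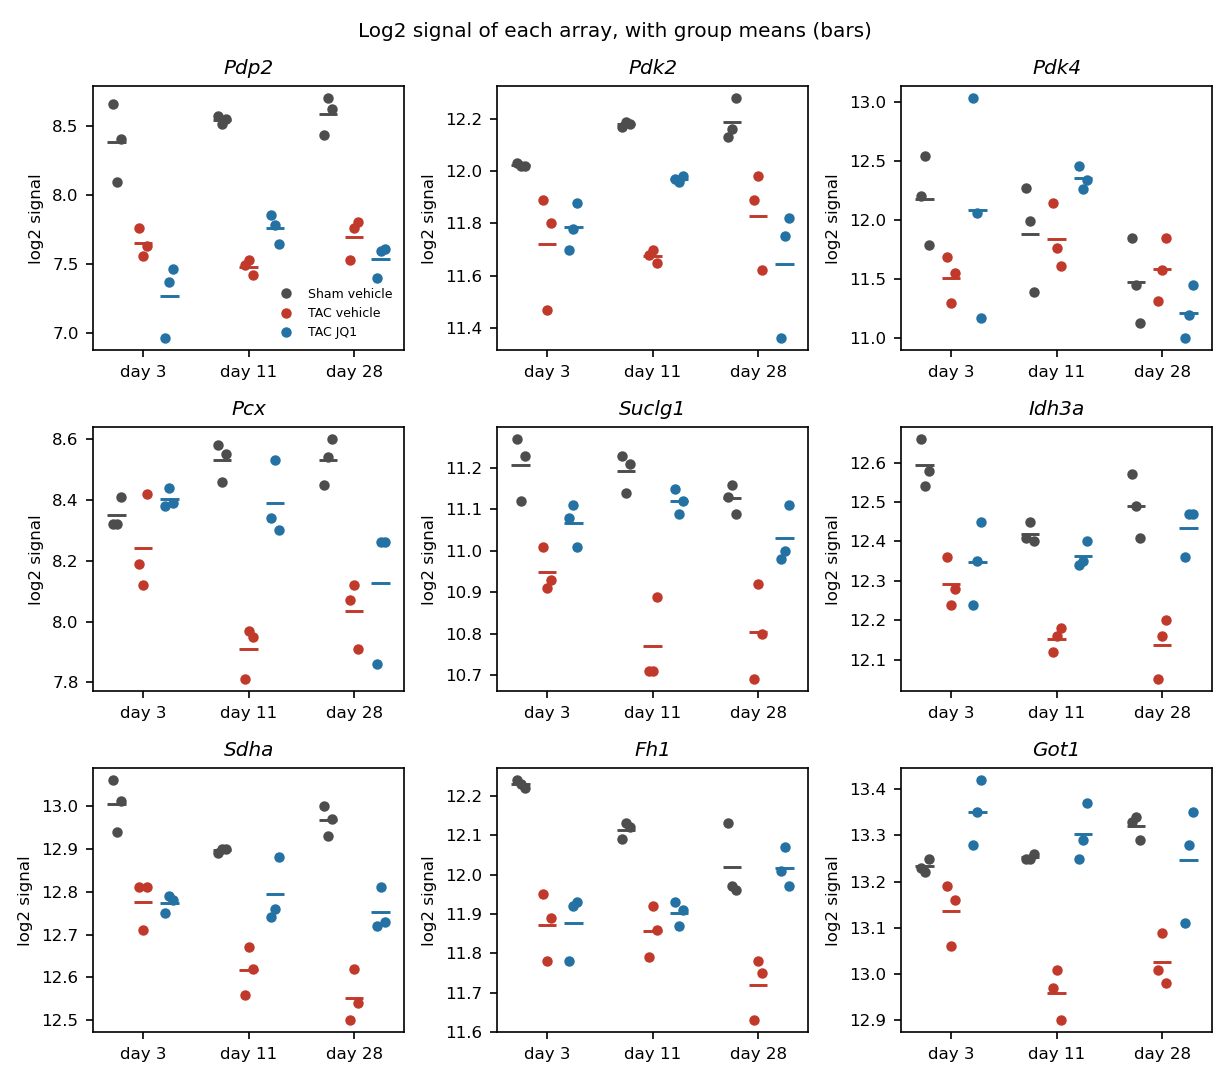
Log2 signal (vertical axis, own scale for each gene) of every array at days 3, 11 and 28 for 9 of the genes, with a bar at each group mean of 3 arrays. Pdp2 separates sham from both TAC groups at every day, Pdk4 overlaps, and in Got1 the JQ1 arrays lie above the TAC vehicle arrays at all 3 days.

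The first steps of the cycle fell together with TAC. Cs, citrate synthase, fell by 0.24 ± 0.04 in the mean over days (adjusted p = 1.35e-05) and rose with JQ1 by 0.12 ± 0.04 (0.0114). Idh3a, the catalytic subunit of the NAD-dependent isocitrate dehydrogenase, had the largest TAC difference of this group in the mean over days. Idh3a read 12.66, 12.54 and 12.58 in sham, 12.36, 12.24 and 12.28 in TAC vehicle and 12.24, 12.35 and 12.45 in TAC JQ1 at day 3. For day 11 it read 12.41, 12.45 and 12.40, then 12.12, 12.16 and 12.18, then 12.34, 12.35 and 12.40. At day 28 it read 12.57, 12.49 and 12.41, then 12.05, 12.16 and 12.20, then 12.36, 12.47 and 12.47. TAC vehicle lay below sham without overlap at all 3 days, and the JQ1 arrays overlapped vehicle at day 3 and lay wholly above it at days 11 and 28.

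Idh3a fell with TAC by 0.30 ± 0.06 at day 3 (adjusted p = 0.00496), 0.27 ± 0.06 at day 11 (0.00507) and 0.35 ± 0.06 at day 28 (0.000453). JQ1 raised it by 0.30 ± 0.06 at day 28 (0.0019) and by 0.19 ± 0.04 in the mean over days (0.000405), which is 1.14-fold against a TAC fall of 1.24-fold. At day 11 the rise was 0.21 ± 0.06 (0.0281), a call that did not hold without TAC vehicle replicate 1 (0.0986) or replicate 2 (0.0680), or JQ1 replicate 1 (0.0569), replicate 2 (0.0660) or replicate 3 (0.0884). Of the other subunits of that enzyme, Idh3g fell by 0.17 ± 0.03 and Idh3b by 0.13 ± 0.03 in the mean over days. With JQ1 Idh3g rose by 0.09 ± 0.03 (0.0192), and Idh3b stood at 0.00 ± 0.03 (0.985).

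Idh2, the NADP-dependent isocitrate dehydrogenase of mitochondria, was among the 2 genes with the smallest p for a TAC effect that differs between days. It read 12.74, 12.85 and 12.82 in sham and 12.77, 12.52 and 12.75 in TAC vehicle at day 3, and 12.64, 12.74 and 12.69 in TAC JQ1. Day 11 arrays read 12.88, 12.84 and 12.83, then 12.42, 12.58 and 12.53, then 12.80, 12.71 and 12.78. Day 28 arrays read 12.79, 12.79 and 12.88, then 12.69, 12.72 and 12.67, then 12.61, 12.73 and 12.73. Only at day 11 did the JQ1 arrays clear the vehicle arrays. Idh2 fell with TAC by 0.34 ± 0.07 at day 11 (adjusted p = 0.000789), with differences of -0.12 and -0.13 at days 3 and 28 (0.360 and 0.221). JQ1 raised it by 0.25 ± 0.07 at day 11 (0.0112), a call that did not hold without TAC vehicle replicate 1 (0.0757) or JQ1 replicate 1 (0.0523). In the mean over days the TAC fall of Idh2 was 0.20 ± 0.04 (0.000344) and the JQ1 difference 0.09 ± 0.04 (0.103).

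The oxoglutarate dehydrogenase complex, which makes succinyl-CoA, was measured through its E1 and E2 subunits. Ogdh fell with TAC by 0.16 ± 0.04 (adjusted p = 0.00505) and Dlst by 0.22 ± 0.04 (0.00013) in the mean over days. Their JQ1 differences, 0.04 ± 0.04 and 0.07 ± 0.04, did not pass (0.597 and 0.181). At day 28 Ogdh with JQ1 was lower than sham by 0.33 ± 0.07 on the log2 scale (0.0017).

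Succinyl-CoA ligase makes GTP or ATP from succinyl-CoA, through a shared alpha subunit, Suclg1, and a beta subunit that sets the nucleotide, Suclg2 for GTP and Sucla2 for ATP. The 3 genes all fell with TAC at each of the 3 days. Of these calls, that of Suclg2 at day 3 did not hold without TAC vehicle replicate 2 (adjusted p = 0.0651). The day 11 call of Sucla2 ended without sham replicate 2 (0.0542) or replicate 3 (0.0652), or TAC vehicle replicate 1 (0.117), and the day 3 call of Suclg1 is given with its values. Suclg1, first, read 11.27, 11.12 and 11.23 in sham, 11.01, 10.91 and 10.93 in TAC vehicle and 11.08, 11.11 and 11.01 in TAC JQ1 at day 3. At day 11 Suclg1 read 11.23, 11.14 and 11.21, then 10.71, 10.71 and 10.89, then 11.15, 11.09 and 11.12. At day 28 its arrays read 11.13, 11.16 and 11.09, then 10.69, 10.92 and 10.80, then 10.98, 11.00 and 11.11. TAC vehicle lay below sham without overlap at every day, and the JQ1 arrays lay above vehicle at days 11 and 28, while at day 3 the lowest JQ1 array equalled the highest vehicle array at 2 decimals.

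Suclg1 fell with TAC by 0.33 ± 0.04 in the mean over days (adjusted p = 4.45e-07) and rose with JQ1 by 0.23 ± 0.04 (4.74e-05). At day 11 the TAC fall was 0.42 ± 0.07 (8.59e-05) and the JQ1 rise 0.35 ± 0.07 (0.000741), which left TAC with JQ1 at -0.07 from sham (0.570). The day 3 call for TAC (-0.26 ± 0.07, 0.0180) did not hold without sham replicate 1 (0.0836) or replicate 3 (0.0758), or TAC vehicle replicate 2 (0.116) or replicate 3 (0.0576). The day 28 call for JQ1 (0.23 ± 0.07, 0.0171) did not hold without TAC vehicle replicate 1 (0.10) or JQ1 replicate 3 (0.0649).

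Sucla2 read 12.26, 12.19 and 12.19 in sham, 12.00, 11.83 and 11.89 in TAC vehicle and 11.98, 11.88 and 11.95 in TAC JQ1 at day 3. At day 11 Sucla2 read 12.04, 12.06 and 12.07, then 11.78, 11.91 and 11.88, then 11.99, 11.96 and 12.05. Day 28 values of Sucla2 were 12.18, 12.17 and 12.14, then 11.74, 11.84 and 11.64, then 12.02, 11.97 and 12.03. The JQ1 arrays lay with the vehicle arrays at day 3 and between vehicle and sham at day 28. Sucla2 fell with TAC by 0.31 ± 0.03 in the mean over days (adjusted p = 2.96e-07) and by 0.42 ± 0.06 at day 28 (3.67e-05). It rose with JQ1 by 0.15 ± 0.03 in the mean over days (0.00179) and by 0.27 ± 0.06 at day 28 (0.00243).

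Suclg2 fell with TAC by 0.45 ± 0.05 in the mean over days (adjusted p = 1.62e-07), the largest fall of the set after Pdp2, and its JQ1 difference was 0.12 ± 0.05 (0.0694). It is the only gene of the set with 2 probe sets, which list the same RefSeq transcripts. The dimmer one gave TAC differences of -0.35, -0.53 and -0.53 and JQ1 differences of 0.04, 0.20 and 0.18 at days 3, 11 and 28, where the brighter one gave -0.38, -0.44 and -0.51, and -0.02, 0.16 and 0.21. Whether the brighter one reads a near-identical copy of the gene elsewhere in the genome was not tested.

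Succinate dehydrogenase is both a TCA enzyme and complex II of the respiratory chain. Sdha, its flavoprotein subunit and the site of succinate oxidation, had the second smallest p for TAC in the mean over days. It read 13.06, 12.94 and 13.01 in sham, 12.81, 12.71 and 12.81 in TAC vehicle and 12.75, 12.79 and 12.78 in TAC JQ1 at day 3. At day 11 Sdha read 12.89, 12.90 and 12.90, then 12.56, 12.67 and 12.62, then 12.74, 12.76 and 12.88. At day 28 Sdha read 13, 12.93 and 12.97, then 12.50, 12.62 and 12.54, then 12.72, 12.81 and 12.73. No TAC array of either treatment reached a sham array of its day, and the JQ1 arrays lay above the vehicle arrays at days 11 and 28 but not at day 3.

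In the mean over days Sdha fell with TAC by 0.31 ± 0.03 (adjusted p = 1.47e-07) and rose with JQ1 by 0.12 ± 0.03 (0.00475). At day 28 the fall was 0.41 ± 0.06 (2.4e-05), and TAC with JQ1 was still 0.21 ± 0.06 lower than sham on the log2 scale (0.00744). The day 28 rise with JQ1 (0.20 ± 0.06, 0.0156) did not hold without TAC vehicle replicate 1 (0.0679) or replicate 3 (0.0508), or JQ1 replicate 2 (0.0793).

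Sdhc, a membrane anchor of the complex, read 12.22, 12.16 and 12.22 in sham, 12.06, 11.89 and 12.04 in TAC vehicle and 11.98, 12.09 and 12.01 in TAC JQ1 at day 3. At day 11 Sdhc read 12.25, 12.22 and 12.22, then 11.80, 11.85 and 11.82, then 12.02, 11.98 and 12.04, with no overlap among the 3 groups. Its day 28 values were 12.21, 12.18 and 12.26, then 11.91, 11.95 and 11.78, then 11.88, 12.08 and 11.99, with the TAC groups overlapping. Sdhc fell with TAC by 0.41 ± 0.06 at day 11 (adjusted p = 7.4e-05) and by 0.32 ± 0.04 in the mean over days (4.72e-07). Sdhb, the iron-sulfur subunit, fell by 0.18 ± 0.03 and Sdhd, the other anchor, by 0.20 ± 0.05 in the mean over days. Their JQ1 differences of 0.03 and 0.10 in the mean over days did not pass (0.5 and 0.15). At day 28 Sdhd rose with JQ1 by 0.30 ± 0.08 (0.015), a call that did not hold without TAC vehicle replicate 1 (0.06) or replicate 2 (0.0708), or JQ1 replicate 2 (0.0644).

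Fh1, fumarase, hydrates fumarate to malate. It read 12.24, 12.23 and 12.22 in sham, 11.95, 11.78 and 11.89 in TAC vehicle and 11.78, 11.92 and 11.93 in TAC JQ1 at day 3. At day 11 Fh1 read 12.09, 12.13 and 12.12, then 11.79, 11.92 and 11.86, then 11.93, 11.87 and 11.91. At day 28 Fh1 read 12.13, 11.97 and 11.96, then 11.63, 11.78 and 11.75, then 12.01, 12.07 and 11.97. The JQ1 arrays overlapped the vehicle arrays at days 3 and 11 and lay within the sham range at day 28. Fh1 fell with TAC by 0.36 ± 0.06 at day 3 (adjusted p = 0.00115), 0.25 ± 0.06 at day 11 (0.00731) and 0.30 ± 0.06 at day 28 (0.00198). It rose with JQ1 by 0.30 ± 0.06 at day 28 (0.00189), with differences of 0.00 and 0.04 at days 3 and 11 (0.994 and 0.695).

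Got1, the cytosolic aspartate aminotransferase of the malate-aspartate shuttle, had the largest JQ1 rise of the set in the mean over days. It read 13.23, 13.22 and 13.25 in sham, 13.19, 13.06 and 13.16 in TAC vehicle and 13.28, 13.35 and 13.42 in TAC JQ1 at day 3. At day 11 Got1 read 13.25, 13.25 and 13.26, then 12.97, 13.01 and 12.90, then 13.25, 13.29 and 13.37. At day 28 Got1 read 13.33, 13.34 and 13.29, then 13.01, 13.09 and 12.98, then 13.11, 13.28 and 13.35. The JQ1 arrays lay above all vehicle arrays at each day, above all sham arrays at day 3, and overlapped sham at day 28.

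Got1 fell with TAC by 0.23 ± 0.04 in the mean over days (adjusted p = 3.05e-05) and rose with JQ1 by 0.26 ± 0.04 (6.03e-06). By day the JQ1 rise was 0.21 ± 0.06 at day 3 (0.0279), 0.35 ± 0.06 at day 11 (0.000507) and 0.22 ± 0.06 at day 28 (0.0159). The day 3 call did not hold without TAC vehicle replicate 2 (0.137) or replicate 3 (0.0515), or JQ1 replicate 2 (0.0650) or replicate 3 (0.0945). The day 28 call did not hold without TAC vehicle replicate 3 (0.0667), or JQ1 replicate 2 (0.0660) or replicate 3 (0.0745). TAC with JQ1 differed from sham by 0.12, 0.05 and -0.08 at the 3 days, none past the test (0.251, 0.697 and 0.492).

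Among the other shuttle enzymes, Got2, the mitochondrial aminotransferase, fell with TAC by 0.12 ± 0.03 in the mean over days (adjusted p = 0.0123), Mdh1, the cytosolic malate dehydrogenase, by 0.12 ± 0.03 (0.00626) and Mdh2, the mitochondrial one, by 0.10 ± 0.03 (0.0203). Their JQ1 differences of 0.03, 0.07 and 0.01 in the mean over days did not pass (0.621, 0.0783 and 0.884). At day 28 Mdh1 rose with JQ1 by 0.16 ± 0.05 (0.0409), a call that did not hold without TAC vehicle replicate 1 (0.156) or replicate 2 (0.117), or JQ1 replicate 1 (0.123) or replicate 2 (0.0907). Got2 in TAC with JQ1 was lower than sham at day 28 by 0.24 ± 0.06 on the log2 scale (0.00384), whichever 1 array was left out. After the levelling on cardiomyocyte markers these 3 genes, Pdk1 and Idh3b no longer passed for TAC (0.208, 0.244, 0.411, 0.0721 and 0.0556 in the order Got2, Mdh1, Mdh2, Pdk1 and Idh3b).

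**Figure D4:**
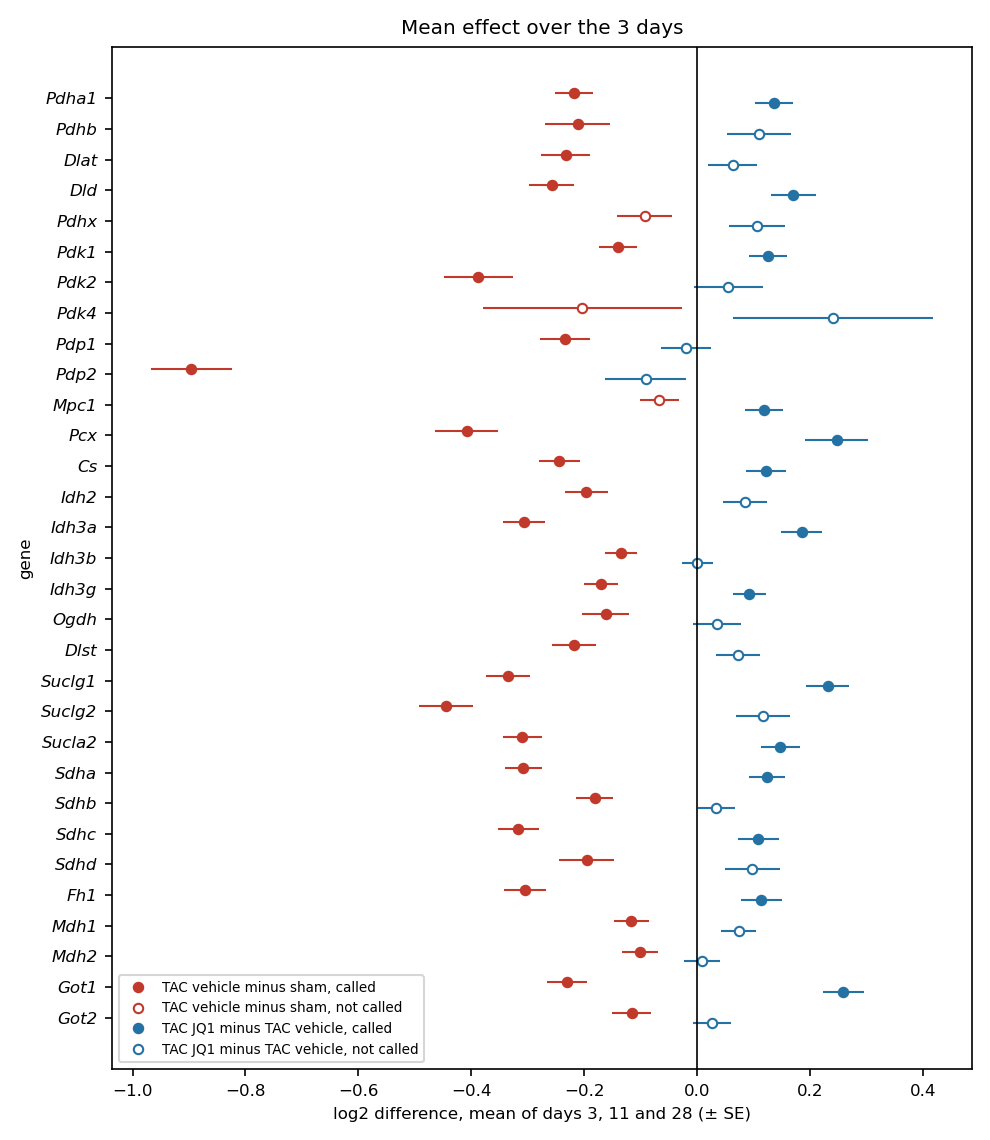
Differences averaged over days 3, 11 and 28 on the log2 scale (horizontal axis, ± SE) for the 31 genes (vertical axis), TAC vehicle minus sham in red and TAC JQ1 minus TAC vehicle in blue, with filled points for an adjusted p under 0.05. All red points lie left of 0, from -0.90 for Pdp2 to -0.07 for Mpc1, and the blue points run from -0.09 for Pdp2 to 0.26 for Got1.

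Whether an effect differed between days was tested with moderated F tests, which called 1.31% of all genes for TAC and 1.07% for JQ1. None of the 31 genes passed (0 for TAC and 0 for JQ1), with 3 and 9 genes at an unadjusted p under 0.05, and array weights in the fit gave 2 and 5 calls. The shares of all genes at that unadjusted p, or called with array weights, are not given here. These counts, and those of the sham test below, can therefore not be read as an excess. The smallest adjusted p for TAC was that of Pcx (0.0909), followed by Idh2 (0.330). For JQ1 they were Pdp2 (0.09995) and Fh1 (0.129). The differences in counts between days are therefore not shown to be differences of effect. The sham level between days was also tested: 0.0652% of all genes and 0 of the 31 passed, 3 had an unadjusted p under 0.05, array weights gave 4 calls, and the smallest adjusted p were those of Fh1 (0.520) and Sucla2 (0.710).

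Genes next to the route, a list of 40 measured genes of pyruvate, acetyl-CoA, malate, ketone and amino acid metabolism and of complex assembly, was counted the same way. In the mean over days 23 of them fell and 7 rose with TAC, with a median of -0.17, where 12.9% of all genes fell and 13% rose. With JQ1 13 rose and 4 fell, with a median of 0.07, where 12.3% of all genes rose and 16.8% fell. The smallest p among those that fell with TAC belonged to Gpt2, the mitochondrial alanine aminotransferase that forms pyruvate from alanine (-0.70 ± 0.06, adjusted p = 4.64e-09), and Pcca, a subunit of propionyl-CoA carboxylase (-0.43 ± 0.04, 2.5e-08). Among those that rose were Slc25a1, the mitochondrial citrate exporter (0.30 ± 0.05, 2.43e-05), and Pdk3, a pyruvate dehydrogenase kinase (0.41 ± 0.07, 0.000102). Slc25a1 fell with JQ1 by 0.27 ± 0.05 (7.41e-05), as did Lipt1, a lipoyl transferase, by 0.20 ± 0.05 (0.00516). The smallest p among rises with JQ1 belonged to Acly, ATP citrate lyase (0.25 ± 0.04, 2.71e-05), and Aco1, the cytosolic aconitase (0.22 ± 0.04, 5.04e-05).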

How the data were processed

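Each of the 27 arrays has 34760 log2 signals, 1 for a probe set, which were deposited by the authors and used unchanged. The way they were normalized was not given in the sources used here. The tool limma appears in the submitters' processing notes without a version. A probe set stood for a gene where the annotation names 1 gene (21640 probe sets), and the highest mean over arrays was kept where a gene had several (954 genes), which left 19937 genes. Depth has no meaning for arrays, and their number, 3 a group, limits the precision.

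A single limma fit (lmFit, eBayes; version 3.58.1, R 4.3.3) held the 9 group means, with 18 residual and 4.90 prior degrees of freedom. Contrasts compared groups within a day and averaged over days, moderated F tests asked whether effects differed between days, and the Benjamini-Hochberg adjustment ran over all 19937 genes. The code of the fit was tried on simulated data with known changes, drawn independently for each gene and array. Such data cannot show whether the arrays here are separate hearts or share a batch. No scan or hybridisation batch is given in the files. RefSeq promoters of GRCm38.p6 were searched over 250 bases.

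The members and all lists were chosen with earlier results of these data known. Any member could be named. Values of every array are given for the called members with the smallest p in each direction of each TAC and JQ1 comparison (2 within a day, 1 for a mean over days), for the 2 with the smallest p in each test between days, for Pdk2, Pdk4, Pcx and Mpc1, and for Pdha1 at 1 day, chosen after its values were seen. Of the neighbouring genes the 2 with the smallest p per direction in each mean over days are named. Alternatives were a further quantile normalization, median centring, leaving out the dimmest genes, the mean of probe sets, probe sets of several genes, trend and robust eBayes, array weights, fits of only the groups compared, the replicate number as a block, leaving out each array, and levelling on cardiomyocyte markers.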

Additional observations from a re-analysis of the deposited data

Results flagged for a closer look

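The JQ1 difference of Pdp2 changed sign between days with no overlap on either side. At day 3 all 3 JQ1 arrays lay below all 3 TAC vehicle arrays (log2 difference -0.38), and at day 11 all 3 lay above them (0.28). The moderated F test of limma for a JQ1 effect that differs between days gave an adjusted p of 0.09995 for Pdp2, which does not pass, and the day 11 difference alone does not pass either (0.141).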

How the results depend on the processing

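The direction of every called gene held under all alternatives run. With array weights the counts were 16 lower genes for TAC at day 3, 21 higher for JQ1 at day 11, and against sham 18 lower for TAC with JQ1 at day 3 and 9 lower and 1 higher at day 11; the tests between days then called 2 genes for TAC, 5 for JQ1 and 4 for sham. A fit of only the groups compared, which leaves fewer arrays for the spread, gave 1 lower gene for TAC at day 3, 0 lower and 0 higher for JQ1 at day 3, 0 higher for JQ1 at day 28, 2 and 5 lower for TAC with JQ1 against sham at days 3 and 28, and 1 gene in the TAC test between days. For array weights and for fits of only the groups compared, the share of all genes called is not given here. A further quantile normalization gave 0 lower and 0 higher for JQ1 at day 3, where 7.14% of all genes fell and 6.25% rose. Median centring gave 0 lower there, where 5.23% of all genes fell. For TAC with JQ1 against sham at day 11 it gave 1 lower and 1 higher (3.94% and 5.81% of all genes). For JQ1 in the mean over days it gave 23 higher (23.3% of all genes). Leaving out the dimmest genes, or trend and robust eBayes, gave 1 higher gene against sham at day 11. The share of all genes called under either setting is not given here. Levelling on cardiomyocyte markers, added after seeing the data, gave 14 lower for TAC at day 28, 3 higher for JQ1 at day 11, 7 lower against sham at day 28 and 9 higher for JQ1 in the mean over days. Leaving out 1 array at a time gave 4 to 14 lower genes for TAC at day 3, 14 to 17 at day 11, 15 to 21 at day 28 and 28 in each case for the mean over days. For JQ1 it gave 0 to 1 lower and 0 to 1 higher at day 3, 3 to 8 higher at day 11, 5 to 10 at day 28 and 12 to 16 in the mean over days. Against sham it gave 6 to 9 lower genes at day 3, 1 to 3 at day 11 and 7 to 12 at day 28. Over all genes, the same omissions gave 173 to 794 lower with TAC at day 3 and 1092 to 1417 at day 11. At day 28 they gave 791 to 1340. Genes that rose with JQ1 numbered 878 to 1264 at day 11 and 833 to 2009 at day 28. For TAC with JQ1 against sham, 1577 to 2086, 652 to 905 and 1929 to 2386 were lower at the 3 days.

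The replicate number was not used to pair the arrays in the main fit. Of 27 same-numbered pairs within a day 7 had deviations correlated above 0.1, with a range of -0.46 to 0.50. With 3 arrays a group this check cannot decide whether same-numbered arrays belong together. With the replicate block within day, JQ1 at day 3 had 0 higher genes and TAC with JQ1 against sham at day 11 had 2 lower, and the counts for the means over days were 28 lower for TAC and 12 higher for JQ1. The share of all genes called with the replicate block is not given here, so these counts cannot be read as an excess.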
